A study of Mus musculus with 391 samples.

Results

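The genes described here are 6 ion channel genes, Piezo1, Piezo2, Trpv4, Trpv2, Kcnq1 and Clic4. They were taken by name from a count table of 56941 genes, and all 6 had reads. Channel proteins let ions cross a membrane, and some open when the membrane is stretched or sheared. Piezo1 and Piezo2 form large force-gated cation channels: Piezo1 is known as a sensor of blood flow in endothelium, and Piezo2 as the touch sensor of sensory neurons. Trpv4 and Trpv2 are calcium-permeable channels of the TRP family, known for responses to swelling, warmth or stretch. Kcnq1 is the pore of a voltage-gated potassium channel of heart and epithelia. Clic4 belongs to the chloride intracellular channel family and is known for its part in endothelial tube formation.

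The cells were 111 endothelial cells and 280 cells of a class labelled microglia, all released from vessel fragments of the adult mouse brain. Cells were sorted into wells, and their libraries were made with the full-length Smart-seq2 protocol. A deposited cell table gives the endothelial cells the code CP-EC and the other class MG, and the labels do not say what the codes stand for. The endothelial cells may therefore be of a particular origin that the labels leave unnamed, and each endothelial value below is that of these cells. No treatment, genotype, strain, sex or number of animals is given in the labels, and no label ties a cell to an animal. Each class was therefore 1 sample, and no test between classes was made. Endothelial cells line vessels, and microglia are the macrophages that live in brain tissue.

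Gene reads per cell ran from 83954 to 602175 in endothelial cells (median 174345) and from 39876 to 504875 in the microglia class (median 146506). The column names showed 4 plates, called A to D here. Endothelial cells came from all of them, with 7, 10, 50 and 44 cells, and microglia-class cells from plates A and B, with 133 and 147. A list of 12 endothelial markers summed to 28075 CPM in endothelial cells, against 401 in the microglia class. Markers of fenestrated endothelium, the permeable kind, were high in the endothelial cells, with 8 of 8 at 1 CPM or more and a sum of 25796 CPM, and summed to 577 CPM in the microglia class. A list of 14 microglia markers summed to 158 CPM in endothelial cells, against 27825 in the microglia class. CPM is the usual scaling of a gene's reads to the total gene reads, here pooled over the cells of a class. The microglia class also carried 12 markers of border macrophages, the macrophages of meninges and perivascular spaces, at a summed 8272 CPM, against 615 in endothelial cells. Intervals in parentheses are exact 95% Poisson intervals for CPM, exact conditional binomial intervals for ratios and Clopper-Pearson intervals for shares of cells. The reads carry no molecular identifiers, so copies of 1 molecule count as separate reads. The intervals for CPM and ratios treat every read as independent and cover the counting error of reads only. They leave out the spread between cells and the variation between animals, and are too narrow where few cells hold most reads. Those for shares treat cells as independent and do not measure variation between animals.

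At the sequence level, RefSeq promoters were at hand for 4 of the 6 genes, Piezo1, Trpv4, Trpv2 and Clic4. They are shown because Piezo1, Trpv4 and Clic4 were read in cells of both classes, whereas Trpv2 was nearly confined to the microglia class. Each runs from 250 bases before to 50 bases after the annotated start on GRCm38.p6, 5′ to 3′ on the gene's own strand, with CG dinucleotides in capitals.
Piezo1: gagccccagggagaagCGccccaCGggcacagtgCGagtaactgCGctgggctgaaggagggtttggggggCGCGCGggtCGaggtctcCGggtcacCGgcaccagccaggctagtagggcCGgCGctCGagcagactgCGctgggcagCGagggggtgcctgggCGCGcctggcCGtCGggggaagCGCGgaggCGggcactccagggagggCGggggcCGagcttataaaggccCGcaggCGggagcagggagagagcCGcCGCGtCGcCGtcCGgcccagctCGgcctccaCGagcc
Trpv4: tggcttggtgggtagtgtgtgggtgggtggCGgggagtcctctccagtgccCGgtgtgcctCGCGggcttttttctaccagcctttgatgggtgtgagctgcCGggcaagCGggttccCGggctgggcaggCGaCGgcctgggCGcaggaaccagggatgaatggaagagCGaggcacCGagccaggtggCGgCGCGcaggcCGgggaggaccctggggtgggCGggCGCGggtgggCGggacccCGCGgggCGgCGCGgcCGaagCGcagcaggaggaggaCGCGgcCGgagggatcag
Clic4: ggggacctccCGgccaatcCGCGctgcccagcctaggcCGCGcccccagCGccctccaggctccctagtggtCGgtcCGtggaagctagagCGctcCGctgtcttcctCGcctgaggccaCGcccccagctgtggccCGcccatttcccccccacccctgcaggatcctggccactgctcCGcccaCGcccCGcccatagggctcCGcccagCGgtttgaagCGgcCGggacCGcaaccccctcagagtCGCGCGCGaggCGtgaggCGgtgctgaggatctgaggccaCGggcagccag
Trpv2: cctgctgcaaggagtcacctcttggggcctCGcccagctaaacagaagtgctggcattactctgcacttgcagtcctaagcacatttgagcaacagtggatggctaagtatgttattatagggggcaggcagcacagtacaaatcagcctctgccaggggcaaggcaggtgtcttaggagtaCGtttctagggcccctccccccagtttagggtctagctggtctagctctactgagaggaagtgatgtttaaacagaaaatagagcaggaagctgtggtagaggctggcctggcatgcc
The windows are chr8:122551280-122551579 for Piezo1, chr5:114658372-114658671 for Trpv4 and chr4:135272711-135273010 for Clic4, all on the minus strand. The window of Trpv2 is chr11:62574236-62574535 on the plus strand, the first of its 3 annotated starts. They hold 34, 30 and 28 CG dinucleotides in Piezo1, Trpv4 and Clic4 and 2 in Trpv2, against a median of 7 over 32851 promoters of the same length. The other starts of Trpv2 hold 2 and 7. The letters GAGGAA, searched on both strands as a core of binding by the macrophage factor PU.1, were in 28.3% of all promoters. They were found 1 time in Trpv2, with the first printed base at -14 from the start, 1 time in Clic4 on the other strand and 0 times in Piezo1 and Trpv4. The letters CACCC, bound by Krüppel-like factors, were in 57.5% of all promoters. They were found 5 times in Trpv4, 1 time each in Piezo1 and Clic4 and 0 times in Trpv2. The motifs share no bases in these windows, and a match is a description of letters only.

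The 6 genes fell on different sides of the comparison of the classes. Piezo2 and Kcnq1 were read almost only in endothelial cells and Trpv2 almost only in the microglia class. Clic4 and Piezo1 were read in both. Pooled over plates they were about 5 times higher in endothelial cells, which for Piezo1 did not hold within plates A and B. Trpv4 stood at similar pooled levels. At 4-fold or more on the log2(CPM + 1) scale, 4 of the 6 were higher in endothelial cells, where 11.7% of 14989 measured genes were. A further 1 of 6 was higher in the microglia class, where 19.9% of measured genes were, and Trpv4 lay between. Because the 6 genes were chosen with earlier results of these data known, these counts are a description only. In place of 4 and 1, the counts were 2 and 3 within plate A and 3 and 1 within plate B, the only plates with both classes. Genes were measured if they reached 1 CPM in at least 1 of the classes. The median log2 ratio of endothelial over microglia class was 2.36 for the 6 genes and -0.36 for all measured genes. For bulk sums of this kind, fewer cells with a transcript and less RNA per cell cannot be told apart, so the shares of cells are given beside the levels.

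**Figure D1:**
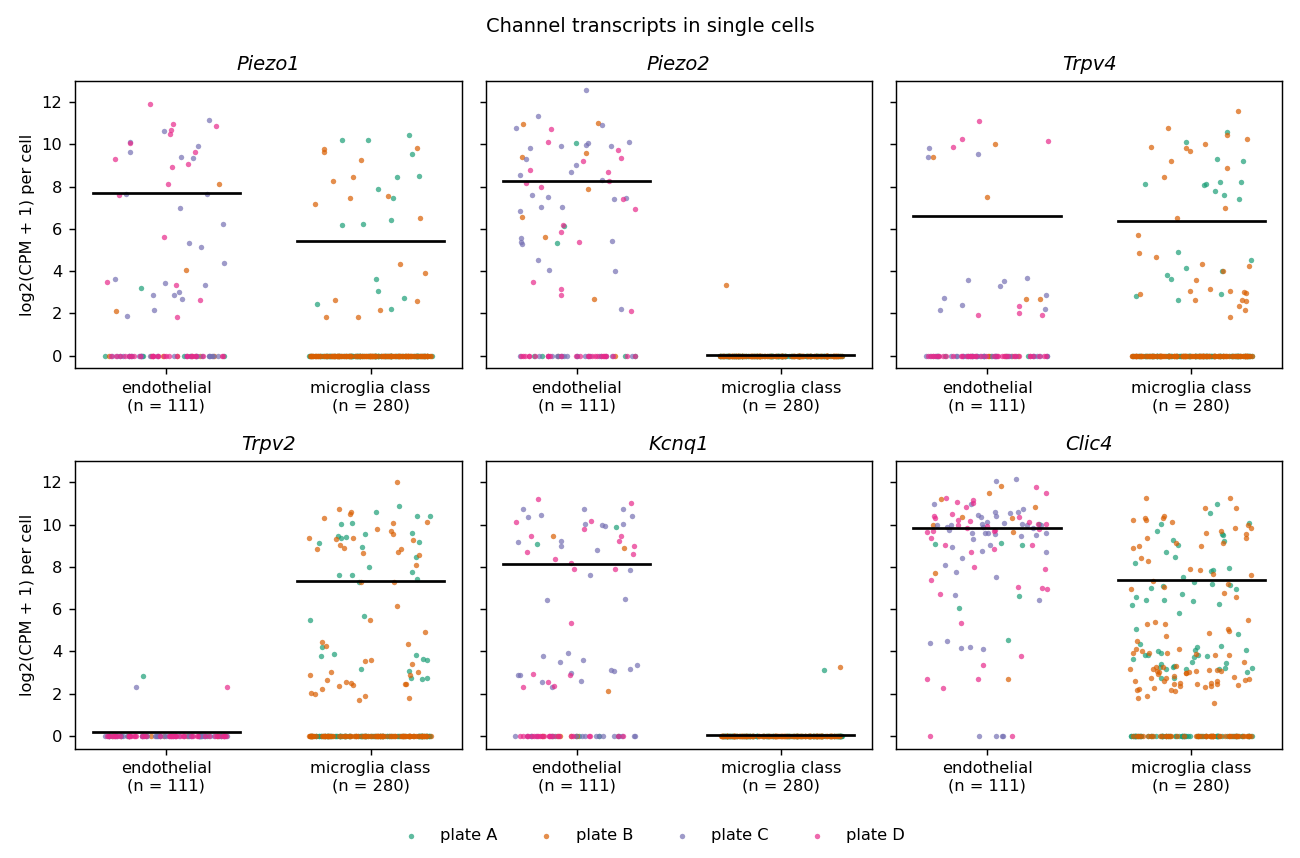
Level of each channel gene in every cell, as log2(CPM + 1), for 111 endothelial cells and 280 microglia-class cells. Each point is 1 cell, colours mark plates and black lines the pooled level of the class. Piezo2 and Kcnq1 points leave 0 almost only among endothelial cells and Trpv2 points almost only in the microglia class, and Clic4 is above 0 in 105 of 111 endothelial cells.

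Piezo1, the shear sensor, had 4449 reads in endothelial cells, against 2023 in the microglia class. Its pooled level was 208 CPM (202 to 214) in endothelial cells and 42.6 CPM (40.7 to 44.5) in the microglia class, a ratio of 4.89 (4.64 to 5.16) and a log2 ratio of 2.26. It was read in 44 of 111 endothelial cells, 39.6% (30.5 to 49.4), and in 33 of 280 microglia-class cells, 11.8% (8.25 to 16.2). The median cell had 0 reads in each class, and the highest cells reached 3824 CPM in endothelial cells and 1409 CPM in the microglia class. The groups thus overlapped widely, and the pooled levels came from a minority of cells: the 10 cells with most reads gave 72.6% of Piezo1 reads in endothelial cells, against 79.3% in the microglia class. Among cells with a read, the median level was 161 CPM in endothelial cells and 145 CPM in the microglia class. The difference in pooled level was thus accompanied by a difference in the share of cells with a read.

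Plates did not give the same answer for Piezo1. In endothelial cells it stood at 1.04, 38.2, 185 and 297 CPM on plates A to D, and in the microglia class at 49.97 and 38.6 CPM on plates A and B. On plate A, with 7 endothelial cells and 1 Piezo1 read among them, Piezo1 was 48.1-fold (8.61 to 1901) lower in endothelial cells than in the microglia class. On plate B, with 10 endothelial cells, the ratio was 0.99 (0.78 to 1.24). The endothelial excess thus rested on plates C and D, where only endothelial cells were found. Over all measured genes the median log2 ratio was -1.73 on plate A and -1.87 on plate B, against -0.36 pooled, so the Piezo1 log2 ratio of -4.64 on plate A lay below that median and its -0.013 on plate B above it. Without the endothelial cells of plate D, the log2 ratio was 1.76, under the 4-fold line. Markers of mural cells, the pericytes and smooth muscle of the vessel wall, summed to 15.6, 21.7, 112 and 468 CPM in endothelial cells of plates A to D, with 8 of 10 at 1 CPM or more and 0 without reads. Pooled over cells, endothelial cells with 10 or more Piezo1 reads had 109 CPM of these markers, and the other endothelial cells 288. The medians per cell were close, at 13.0 and 16.2 CPM. The part of these markers in the plate difference was not tested.

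Piezo2, the sensory neuron channel, was the higher of the Piezo pair by reads in endothelial cells. It had 6644 reads and 311 CPM (304 to 319) in endothelial cells, and 1 read and 0.021 CPM (0.00053 to 0.117) in the microglia class. The ratio was 14776.5, with a counting interval of 2651 to 583726 that the single microglia-class read leaves wide. Reads were found in 60 of 111 endothelial cells, 54.1% (44.3 to 63.6), and in 1 of 280 microglia-class cells, 0.36% (0.0090 to 1.97). At 10 or more reads the counts were 46 and 0 cells. Endothelial levels were 169, 614, 406 and 150 CPM on plates A to D, so Piezo2 was read on every plate and its order over plates differed from that of Piezo1. The microglia-class levels were 0 and 0.033 CPM on plates A and B. Neuron markers were low, at a summed 16.2 CPM over 8 genes in endothelial cells and 18.7 CPM in the microglia class. Over endothelial plates A to D the neuron markers summed to 0, 85.8, 9.90 and 8.09 CPM, highest on plate B, where Piezo2 was highest too. Endothelial cells with 10 or more Piezo2 reads had a pooled 9.08 CPM of them, and the other endothelial cells 22.5, with a median of 0 per cell in each. The part of these markers in the Piezo2 level was not tested.

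Scaled to exon length the Piezo pair came close together. Per kilobase of exon, the endothelial level was 21.0 CPM for Piezo1 and 18.1 for Piezo2, since the Piezo2 exons span 17162 bases and those of Piezo1 9935. In the order of endothelial levels per kilobase, Clic4 stood at 139, Kcnq1 at 67.6, Trpv4 at 23.6, Piezo1 at 21.0, Piezo2 at 18.1 and Trpv2 at 0.031. The neighbours Trpv4, Piezo1 and Piezo2 changed order between plates and so did not differ beyond their spread. In the microglia class the order was Trpv2 at 35.5 CPM per kilobase, Clic4 at 25.4, Trpv4 at 20.1, Piezo1 at 4.29, Kcnq1 at 0.010 and Piezo2 at 0.0012. Exon lengths are unions over the transcripts of each gene in GENCODE M21.

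Trpv4, the osmotic and warmth channel also known from choroid plexus epithelium, was the one gene at similar pooled levels. It stood at 96.2 CPM (92.1 to 100.5) in endothelial cells and 82.1 CPM (79.6 to 84.7) in the microglia class, a ratio of 1.17 (1.11 to 1.24) and a log2 ratio of 0.23. A read was present in 25 of 111 endothelial cells, 22.5% (15.1 to 31.4), and in 53 of 280 microglia-class cells, 18.9% (14.5 to 24.0). At an equal depth of 71000 reads per cell the shares were 14.4% of endothelial cells and 14.6% of the microglia-class cells. Nearly all of the endothelial signal came from few cells: 10 cells had 10 or more reads, and the 10 cells with most reads gave 99.2% of them. The level was 0, 135, 77.3 and 118 CPM on endothelial plates A to D and 41.4 and 104 CPM in the microglia class on plates A and B. The plate ranges overlapped. Within plate B Trpv4 was 1.29-fold (1.14 to 1.46) higher in endothelial cells, and on plate A it had 0 reads in 7 endothelial cells, which allows up to 3.83 CPM by the exact Poisson interval. Without the endothelial cells of plate D, the log2 ratio was -0.02.

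Trpv2, a channel known in macrophages for its part in phagocytosis, was the reverse of Piezo2. It had 3 reads and 0.14 CPM (0.029 to 0.41) in endothelial cells, and 7554 reads and 159 CPM (155 to 163) in the microglia class. It was 1132-fold (387 to 5491) lower in endothelial cells, a log2 ratio of -7.13. It was read in 3 of 111 endothelial cells, 2.70% (0.56 to 7.70), with 1 read each, and in 84 of 280 microglia-class cells, 30.0% (24.7 to 35.7). Endothelial plates A to D had 1.04, 0, 0.105 and 0.114 CPM, and microglia-class plates A and B had 127 and 176 CPM. The plate values of the classes did not overlap. Even so, most microglia-class cells had no Trpv2 read, and the 10 cells with most gave 50.8% of the reads.

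Kcnq1, the potassium channel pore, behaved like Piezo2 by class and was spread more evenly over cells. It had 5910 reads and 277 CPM (269.7 to 284) in endothelial cells, and 2 reads and 0.042 CPM (0.0051 to 0.152) in the microglia class. The ratio was 6572, with a counting interval of 1819 to 54279.9. The cells with a read were 58 of 111 endothelial cells, 52.3% (42.6 to 61.8), and 2 of 280 microglia-class cells, 0.71% (0.087 to 2.56). Its endothelial level was 213, 111, 369 and 224 CPM on plates A to D, and its microglia-class level was 0.060 and 0.033 CPM on plates A and B. Plate values did not overlap, and the endothelial values lay within a narrower range than those of Piezo1. Use of strand in the counting is not given in the sources used here, so reads of antisense genes cannot be told apart. Kcnq1ot1, an antisense RNA of the Kcnq1 locus that covers 121 exon bases of Kcnq1, stood at 34.9 CPM in endothelial cells and 53.9 CPM in the microglia class. Another antisense gene, 4933417O13Rik, covers 280 exon bases of Kcnq1 and had 48 reads in endothelial cells, against 0 in the microglia class. The antisense gene Ctu2, which lies over 2441 exon bases of Piezo1, was at 37.7 CPM in endothelial cells and 37.5 CPM in the microglia class. Gm20388, annotated on the opposite strand across all 9935 exon bases of Piezo1, was not analysed here.

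Clic4, the chloride intracellular channel family protein, had the most reads of the 6 in both classes when pooled, though on plate A of the microglia class Trpv2 stood above it, at 127 against 119 CPM. It stood at 916 CPM (903 to 929) in endothelial cells and 167 CPM (163 to 171) in the microglia class, a ratio of 5.49 (5.35 to 5.64) and a log2 ratio of 2.45. It was read in 105 of 111 endothelial cells, 94.6% (88.6 to 98.0), and in 155 of 280 microglia-class cells, 55.4% (49.3 to 61.3). In cells with a read its median level was 838 CPM in endothelial cells and 19.3 CPM in the microglia class, so that many microglia-class cells held only a few reads: 88 of them had 1 to 9. The level was 457, 1515, 857 and 885 CPM on endothelial plates A to D and 119 and 193 CPM on microglia-class plates A and B, with no overlap. Within plate A the ratio was 3.83 (3.45 to 4.25), a log2 ratio of 1.93 just under the 4-fold line, and within plate B it was 7.86 (7.53 to 8.21). Both lay above the median of all measured genes on these plates, given for Piezo1.

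**Figure D2:**
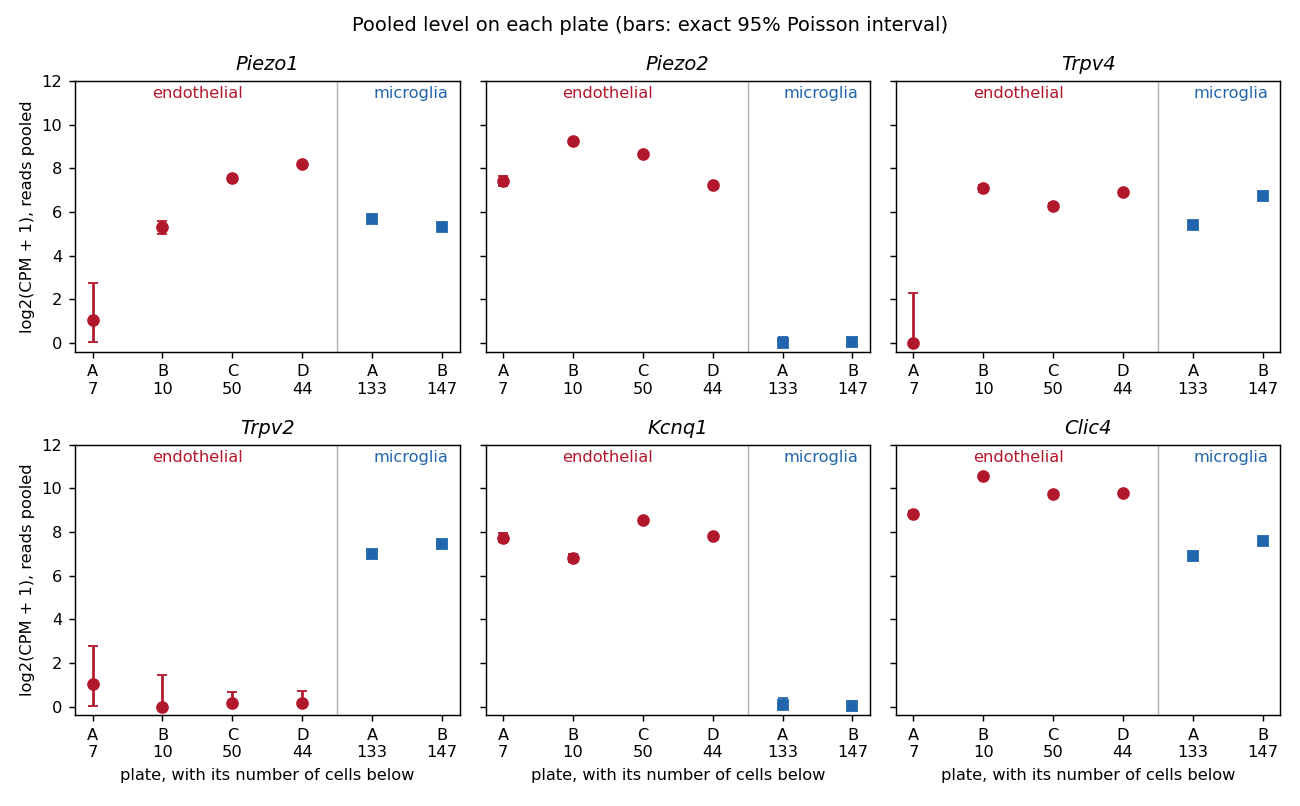
Pooled level of each channel gene on each plate, as log2(CPM + 1), with the number of cells under the plate and bars for exact 95% Poisson intervals. Endothelial plates A to D stand left of microglia-class plates A and B. Piezo1 runs from 1.04 CPM on endothelial plate A to 297 CPM on plate D, and Clic4 stays between 457 and 1515 CPM.

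Low shares of cells with a read need a measure of stray reads. Plvap, a protein of endothelial diaphragms, stood at 7837 CPM in endothelial cells and 1.52 CPM in the microglia class, yet was read in 16.8% of microglia-class cells. The endothelial markers Kdr and Flt1 were read in 28.6% and 67.9% of microglia-class cells, at 4.82 and 7.87 CPM. The Flt1 share was above that of each of the 6 genes in the microglia class, Clic4 at 55.4% included. Csf1r, the survival receptor of macrophages, stood at 17.0 CPM in endothelial cells, where it was read in 39.6% of cells, and at 4524 CPM in the microglia class. The 1 Piezo2 and 2 Kcnq1 reads of the microglia class and the 3 Trpv2 reads of endothelial cells came 1 to a cell, and no order is read from them. Piezo1 and Trpv4 in the microglia class had 20 and 25 cells with 10 or more reads, and Clic4 had 67. After every cell was thinned to 71000 reads, leaving out 0 endothelial and 34 microglia-class cells, the endothelial shares were 32.4% for Piezo1, 51.4% for Piezo2, 45.0% for Kcnq1, 0.90% for Trpv2 and 89.2% for Clic4. The shares of microglia-class cells were 10.6%, 0.41%, 0.41%, 24.8% and 44.3% for the same genes. The order of the classes was the same as before thinning for these 5 genes.

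The per-cell spread differed among the 6 genes. In endothelial cells the coefficient of variation of cell CPM, the SD over the mean, was 0.99 for Clic4, 1.83 for Kcnq1, 2.33 for Piezo2, 2.65 for Piezo1 and 3.59 for Trpv4. In the microglia class it was 2.58 for Clic4, 3.08 for Trpv2, 4.30 for Trpv4 and 4.62 for Piezo1. Clic4 had an endothelial lower quartile of 174, a median of 806 and an upper quartile of 1226 CPM, while Piezo1 and Trpv4 had a median of 0. Clic5 and Lrrc8c, channel genes outside the 6 that are described with their lists, gave values in the same range. Clic5, at 268 CPM, had a coefficient of 1.72 and was read in 62.2% of endothelial cells, and Lrrc8c, at 506 CPM, had 1.41 and 77.5%.

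Counting the 6 genes cell by cell, endothelial cells held more of them at once. This largely restates the class levels, since 4 of the 6 were higher in endothelial cells. Piezo2 and Kcnq1, with 1 and 2 reads in the microglia class, could hardly count there. Cells were not thinned to an equal depth for this count. At 10 or more reads per gene, 7 endothelial cells carried 0 of the 6, 32 carried 1, 47 carried 2, 17 carried 3 and 8 carried 4. In the microglia class 153 cells carried 0, 100 carried 1, 23 carried 2 and 4 carried 3. No cell of either class carried 5 or 6. Piezo1 and Piezo2 were together at 1 or more reads in 24 endothelial cells, Piezo1 alone in 20, Piezo2 alone in 36 and neither in 31. The product of the 2 shares gives 23.8 cells with both, close to the 24 counted. At 10 or more reads Piezo1 and Kcnq1 were together in 14 endothelial cells, where the product of shares gives 8.33, and Piezo2 and Kcnq1 in 13, where it gives 15.3. Pearson's r between any pair of the 6, within plates over 111 endothelial or 280 microglia-class cells of shared libraries, lay between -0.18 and 0.19, and correlations this weak in sparse counts are no finding.

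**Figure D3:**
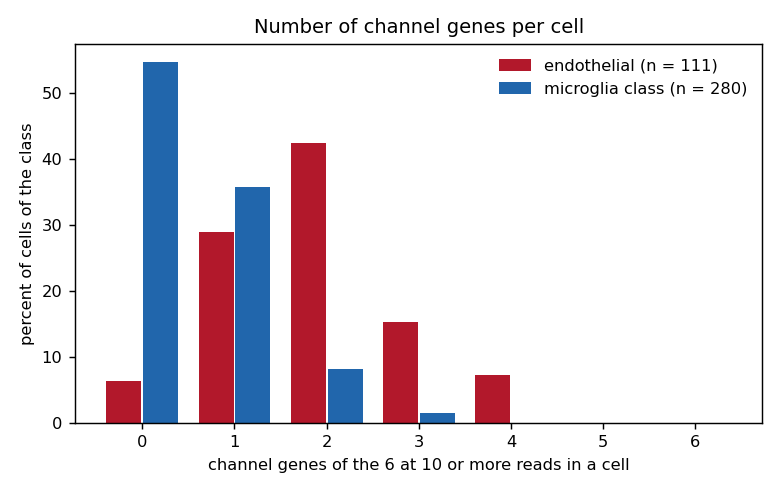
Percent of cells of each class by how many of the 6 channel genes they carried at 10 or more reads, with endothelial bars left of microglia-class bars. Of endothelial cells 42.3% carried 2 and 6.31% carried 0, and of microglia-class cells 8.21% carried 2 and 54.6% carried 0.

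Trpv4, Piezo1, Clic4 and Trpv2 were compared across kinds of cell within the microglia class, where Piezo2 and Kcnq1 had 1 and 2 reads. Clustering of the class with the 6 genes left out gave 3 clusters of 132, 96 and 52 cells. Cluster 3 was microglia-like: all 8 markers of parenchymal microglia had reads in 50% or more of its cells, and Slc2a5, Adgrg1 and Sall1 of them were among its 10 leading genes, beside Il1a, Cd34 and Sparc. Clusters 1 and 2 were left unnamed. Cluster 1 had Egfl7, Ccl24 and Cd38 among its leading genes and held the border macrophage markers at a summed 14934 CPM, against 3921 in the other cells of the class. Cluster 2 was led by Vim, Ccr2 and Lsp1 and held MHC class II genes at 24892 CPM, against 4095. Plate A gave 70, 37 and 26 cells to clusters 1 to 3, and plate B gave 62, 59 and 26. Median gene reads were 119566, 177158 and 197266.

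Trpv4 separated these clusters most. It stood at 164 CPM in cluster 1, 45.1 in cluster 2 and 0.096 in cluster 3, where 1 of 52 cells, 1.92% (0.049 to 10.3), had a single read. Cells with a read made up 25.8% (18.5 to 34.1) of cluster 1 and 18.8% (11.5 to 28.0) of cluster 2. The order was the same on both plates, at 73.8, 28.2 and 0 CPM on plate A and 222, 52.0 and 0.159 CPM on plate B for clusters 1 to 3. In cluster 2 a single cell gave 63.3% of the reads, and the level without it was 16.8 CPM. Median gene reads ran the other way, lowest in cluster 1 and highest in cluster 3, and their part in the order was not tested. The 25 microglia-class cells with 10 or more Trpv4 reads had a summed 17412 CPM of border macrophage markers, against 7301 in the other 255 cells. Markers of fenestrated endothelium summed to 984 CPM in those 25 cells and 533 in the others, with medians per cell of 681 and 77.6. Over the whole class Nrp1 alone gave 524 of the 577 CPM of this list. The 12 endothelial markers went the other way, at 186 CPM in the 25 cells and 424 in the others. Their medians per cell were 51.2 and 79.3. Oligodendrocyte markers summed to 1027 CPM in the 25 cells and 494 in the others, but their medians per cell were 21.5 and 51.9. Markers of choroid plexus epithelium summed to 522 CPM in the 25 cells and 18.3 in the others, with a median of 0 per cell in each. In the whole microglia class 5 of the 11 were at 1 CPM or more and Aqp1, Cldn2, Clic6 and Folr1 were at 0 reads, with the list at 9.18 CPM on plate A and 98.1 on plate B. The part of these markers in the Trpv4 level was not tested. In endothelial cells the list summed to 338 CPM in the 10 cells with 10 or more Trpv4 reads and 448 in the other 101.

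Pooled over plates, Clic4, Trpv2 and Piezo1 were highest in cluster 2. Clic4 stood at 92.9, 314 and 40.6 CPM in clusters 1 to 3 and was read in 47.7%, 69.8% and 48.1% of their cells. A single cell gave 57.5% of the Clic4 reads of cluster 3, and the level without it was 18.0 CPM. Trpv2 stood at 106, 216 and 155 CPM, with 21.2%, 36.5% and 40.4% of cells read. On plate A cluster 2 was the lowest, with 107, 105 and 192 CPM in clusters 1 to 3, so its place as the highest rested on plate B, with 105, 261 and 131 CPM. Piezo1 stood at 34.8, 69.6 and 8.86 CPM, and without the top cell of cluster 3 that cluster was at 3.49 CPM. The 67 microglia-class cells with 10 or more Clic4 reads had 20064 CPM of MHC class II genes, against 8974 in the other 213. Against the 52 cells of cluster 3 alone, the log2 ratio of endothelial cells over them was 4.46 for Clic4, 4.41 for Piezo1 and 6.47 for Trpv4, so the near-equal Trpv4 level of the classes held for the class as labelled and not for its microglia-like cells.

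**Figure D4:**
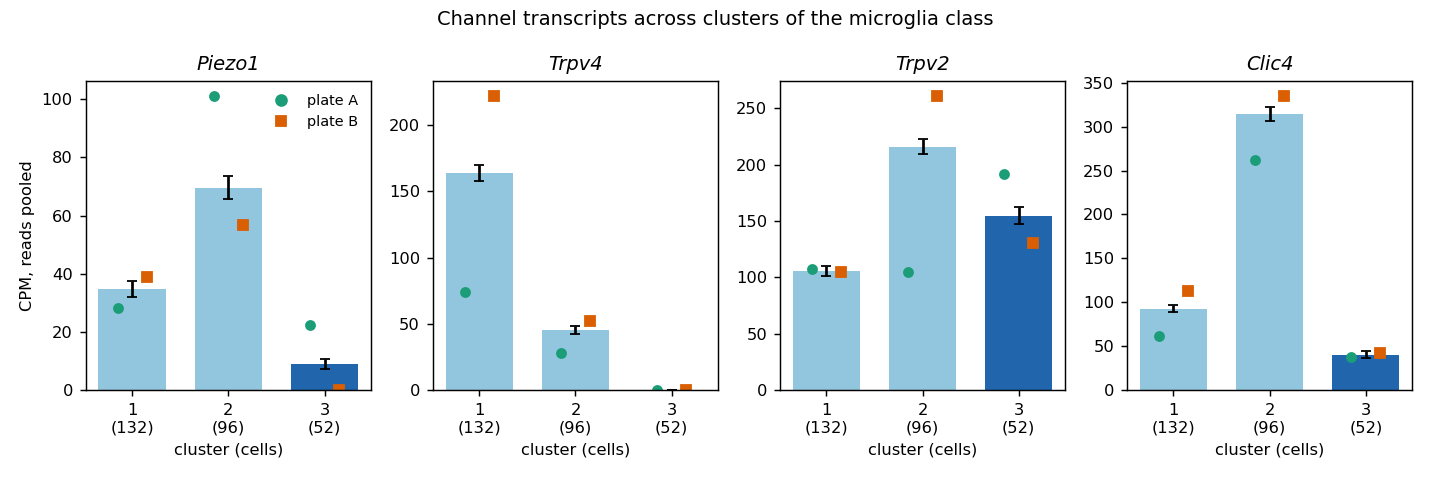
Pooled CPM of Piezo1, Trpv4, Trpv2 and Clic4 in the 3 clusters of the microglia class, with the number of cells in parentheses, bars for the pooled level with its exact 95% Poisson interval, and points for plates A and B. The darker bar is the microglia-like cluster 3, where Trpv4 stood at 0.096 CPM against 164 in cluster 1, and Clic4 peaked in cluster 2 at 314 CPM.

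The genes whose levels over cells were most like those of the broadly read channels were also listed. For each gene read in at least 50% of a class, these are the 3 highest Pearson r of log2(CPM + 1) after each plate's mean was subtracted, among 1188 genes over 111 endothelial cells or 1046 genes over 280 microglia-class cells. For Kcnq1 in endothelial cells they were Gpihbp1, the anchor of lipoprotein lipase on capillaries (r = 0.36), S1pr1, a sphingosine-1-phosphate receptor (0.33), and Impdh1, an enzyme of guanine nucleotide synthesis (0.32). For Piezo2 they were Psmd4, a proteasome subunit (0.31), Slc38a3, an amino acid transporter (0.30), and Nr4a1, an immediate early nuclear receptor (0.29). For Clic4 in endothelial cells they were Fxyd5, a regulator of the sodium pump (0.40), Nucb1, a calcium-binding Golgi protein (0.36), and Psmd4 (0.33). For Clic4 in the microglia class they were Lgals3, a galectin (0.37), Vim, vimentin (0.35), and Cxcl16, a chemokine (0.34). The median r over all genes compared was between 0.0019 and 0.052. All values of a cell share its library and depth, so these are descriptions only.

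The other genes of each pathway come next. A list gene is called endothelial-side where its level on the log2(CPM + 1) scale was at least 4-fold above that of the microglia class, and microglia-side for the reverse. Of all measured genes, 11.7% were endothelial-side and 19.9% microglia-side. List levels are pooled over plates unless a plate is named, and only plates A and B held both classes. Of the 14 genes of the Piezo1 shear pathway of endothelium, 8 were endothelial-side, 0 microglia-side and 6 neither. Their median log2 ratio was 3.06. Pecam1, Cdh5 and Kdr of this list are also among the 12 endothelial markers, so their side was known in advance. Kdr, the main VEGF receptor, and Pecam1, a junctional adhesion molecule, stood at 2888 and 2597 CPM in endothelial cells, and at 4.82 and 60.1 CPM in the microglia class. Notch1, a receptor of cell fate signals, had 865 CPM in endothelial cells and 81.7 CPM in the microglia class. Klf2, a flow-induced transcription factor, and Gnaq, a G protein subunit, stood at 739 and 48.7 CPM in endothelial cells and at 845 and 69.5 CPM in the microglia class, so neither separated the classes.

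All 7 genes of a list of Piezo partners and regulators were neither on this scale, with a median log2 ratio of 1.32. Without the pseudocount Mdfi, a relative of Mdfic, had a ratio of 4.06 (3.44 to 4.81), at 18.7 CPM in endothelial cells and 4.61 CPM in the microglia class. Stoml3, known in mice as a modulator of Piezo channels in sensory neurons, was named after its values were seen. It had 32 reads in endothelial cells, in 23.4% of them, against 0 in the microglia class. Against a floor of 3 reads over the class, it was at least 23.7-fold higher. Its reads came from plates C and D, at 2.11 and 1.37 CPM, where only endothelial cells were found. On plates A and B its endothelial level was 0 CPM, so no difference was seen within a plate. Whether these sparse reads were stray was not tested. Anxa6, a membrane-binding annexin, had 403 CPM in endothelial cells and 153 CPM in the microglia class. On plate A it had 67.6 CPM in endothelial cells, against 142, and on plate B 834, against 159. Mdfic, an auxiliary subunit of Piezo channels, and Atp2a2, the calcium pump of the endoplasmic reticulum, stood at 125 and 90.9 CPM in endothelial cells and at 67.0 and 29.2 CPM in the microglia class. In endothelial cells of plates A and B Mdfic had 256 and 41.0 CPM, against 64.5 and 68.4 in the microglia class. Atp2a2 had 17.7 and 201 CPM there, against 23.9 and 32.1. Tmem120a was lower in endothelial cells, at 23.0 CPM, than in the microglia class, at 47.9 CPM.

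Other force-gated channels were also counted. Of 13 such genes 7 were measured, 1 of them endothelial-side and 6 neither, with a median log2 ratio of 0.70. Pkd2, the polycystin cation channel, was the gene past the line, at 65.7 CPM in endothelial cells and 13.1 CPM in the microglia class. Its partner Pkd1 had 135 CPM in endothelial cells and 53.0 CPM in the microglia class. On plates A and B Pkd1 had 0 and 9.9 CPM in endothelial cells, against 25.9 and 67.7 in the microglia class. Tmem63a and Tmem63b, osmotically gated cation channels, stood at 167 and 51.9 CPM in endothelial cells and at 69.5 and 31.6 CPM in the microglia class. On plates A and B Tmem63a had 0 and 45.3 CPM in endothelial cells, against 66.4 and 71.2 in the microglia class. The pooled endothelial excess of Pkd1 and Tmem63a thus rested on plates C and D, where only endothelial cells were found. Tmem63b had 0 CPM in endothelial cells on plate A, against 34.0, and 108 on plate B, against 30.3.

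Of 28 TRP channel genes, Trpv2 and Trpv4 among them, 11 were measured, with 3 endothelial-side, 3 microglia-side and 5 neither. Trpm7, a channel with a kinase domain, and Mcoln1, a lysosomal channel, stood at 66.1 and 71.8 CPM in endothelial cells and at 92.4 and 102 CPM in the microglia class. On plate A Trpm7 was higher in endothelial cells, at 116 CPM against 73.8, and on plate B it had 2.83 against 103.

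Partners and relatives of Kcnq1 were mostly low. Of 9 Kcnq and Kcne genes with a row, 4 were measured, 2 on either side, Kcnq1 among them. Kcne3, a subunit that keeps Kcnq1 channels open in epithelia, had 1.87 CPM in endothelial cells and 21.0 CPM in the microglia class, where Kcnq1 itself had 2 reads. Of 21 other potassium channel genes 14 were measured, with 3 endothelial-side, 7 microglia-side and a median log2 ratio of -1.97. Kcnk13, the THIK-1 channel known from microglia, and Kcnn4, a calcium-activated channel of immune cells, each had 0.23 CPM in endothelial cells, against 137 and 65.5 CPM in the microglia class. Potassium channels thus stood on both sides.

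Within its own family Clic4 stood between its relatives. Of the 5 Clic genes 3 were measured. Clic5, a relative that binds the ezrin and radixin scaffold, had 268 CPM in endothelial cells and 2.29 CPM in the microglia class, a ratio of 117, with 146 to 525 CPM over the endothelial plates. Clic1, a relative of macrophages and many other cells, had 365 CPM in endothelial cells and 470 CPM in the microglia class.

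Of 6 genes of the sphingosine-1-phosphate and cytoskeletal pathway of Clic4, 2 were endothelial-side, 1 microglia-side and 3 neither. Rdx, radixin, and S1pr1 stood at 875 and 688 CPM in endothelial cells and at 92.5 and 154 CPM in the microglia class. Msn, moesin, and Rac1, a small GTPase, stood at 1469 and 801 CPM in endothelial cells and at 687 and 466 CPM in the microglia class. Ezr, ezrin, went the other way, with 13.2 CPM in endothelial cells and 72.7 CPM in the microglia class. Its relatives Rdx and Msn thus stood apart from it.

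Of 29 other chloride channel genes 20 were measured, with 1 endothelial-side, 4 microglia-side and 15 neither. Lrrc8c, a subunit of the volume-regulated anion channel, was the endothelial-side gene, at 506 CPM in endothelial cells and 48.7 CPM in the microglia class. Clcn5, an endosomal chloride exchanger, had 0 reads in endothelial cells and 31.2 CPM in the microglia class, at least 222-fold lower against a floor of 3 reads over the class. Ano6, a scramblase, had 163 CPM in endothelial cells and 99.3 CPM in the microglia class. On plate A it had 75.9 CPM in endothelial cells, against 84.3, and on plate B 283, against 107.

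Calcium and other cation channels come last. Of 9 measured genes of calcium store entry and release, 1 was endothelial-side, 4 microglia-side and 4 neither, with a median log2 ratio of -1.70. Orai1 and Orai3, pores of store-operated entry, stood at 98.6 and 20.5 CPM in endothelial cells and at 322 and 132 CPM in the microglia class. For Orai1 the order turned on plate A, with 445 CPM in endothelial cells against 295, and on plate B it had 246 against 337. Its endothelial level was 30.7 and 98.5 CPM on plates C and D, where only endothelial cells were found. Stim2, a calcium sensor of the endoplasmic reticulum, was the endothelial-side gene, at 108 CPM in endothelial cells and 25.3 CPM in the microglia class. Of 28 other cation channel genes 9 were measured, with 1 endothelial-side, 4 microglia-side and a median log2 ratio of -1.74. P2rx7 and P2rx4, ATP-gated channels of macrophages, stood at 22.4 and 50.9 CPM in endothelial cells and at 522 and 323 CPM in the microglia class. Hvcn1, the voltage-gated proton channel, had 3.46 CPM in endothelial cells and 109 CPM in the microglia class. Leaving out the 6 genes themselves, 21 of 98 measured genes of all these lists were endothelial-side and 24 microglia-side, where 11.7% and 19.9% of all measured genes were. The 98 include pathway genes that are not channels, and 8 of the 21 are of the Piezo1 shear pathway list. Among those 8 are Pecam1, Cdh5 and Kdr, whose side was known in advance, so the count is no result about channels.

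**Figure D5:**
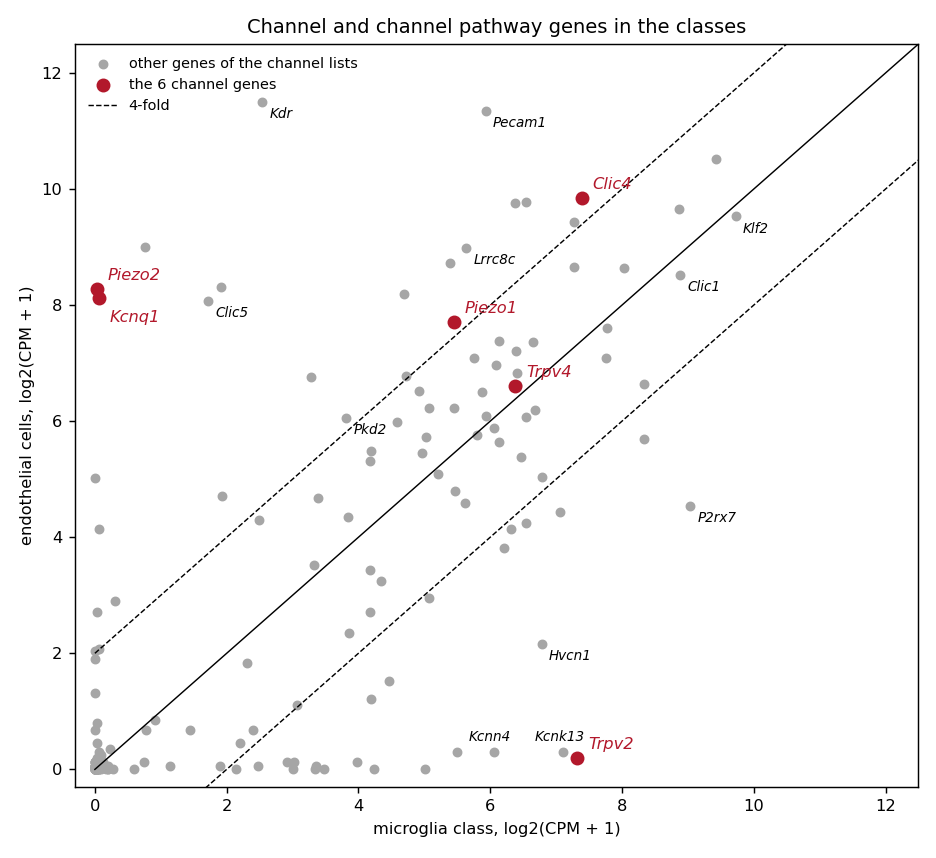
Level of the 6 channel genes and of the other genes of the channel and pathway lists, with endothelial cells on the vertical and the microglia class on the horizontal axis, both as log2(CPM + 1). Dashed lines mark 4-fold differences. Piezo2 and Kcnq1 lie at the upper left, Trpv2 at the lower right beside Kcnk13, Trpv4 near the diagonal, and Piezo1 and Clic4 just above the upper dashed line.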

How the data were processed

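Per the labels, single cells of mouse brain vascular fragments were sequenced with Smart-seq2. The deposited table holds raw counts of reads, not normalized, with 56941 genes in rows and 391 cells in columns. The submitters' processing notes name genome build GRCm39, featureCounts, Subread 1.4.6-p5 and SAMtools 1.16.1. Not given in the sources used here are the aligner, annotation, strand setting and handling of multiply mapped reads, so genes that share reads with copies or antisense genes are uncertain.

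The class of a column came from a second deposited table with 2 cell codes, found 111 and 280 times like the labelled cell types, and plates from the start of the column names. No cell was left out, 0 columns were identical and no doublet caller was run; 0 cells had 1% or more of their reads in the markers of the other class. Reads were summed per class and divided by all gene reads. Ratios are endothelial over microglia class, on log2(CPM + 1) where a log2 ratio is given, which understates low genes, and 4-fold was the line used. Microglia-class cells were clustered on 2000 variable genes without the 6 channel genes (20 components, 15 neighbours, Leiden resolution 0.5). The ratio interval and the 4-fold call were tested on simulated class sums, drawn as Poisson counts without spread between cells. Clustering, thinning, shares of cells and correlations were not tested in this way.

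The 6 genes, the channel lists and the markers were chosen with earlier results of these data known. Named from each list were up to 4 genes with the highest level at 50 CPM or more and the largest ratio in each direction at 5 CPM or more. Some genes that this rule names are not reported here. Promoters are from RefSeq on GRCm38.p6 and exon lengths and overlaps from GENCODE M21, an older build than that of the counts. Scripts ran in Python 3.11.15 with pandas 2.3.3, scipy 1.17.1, scanpy 1.11.5, numpy 2.4.6 and matplotlib 3.10.9. The packages edgeR 4.0.16 and DESeq2 1.42.0 gave alternative scaling factors only.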

Additional observations from a re-analysis of the deposited data

How the results depend on the processing

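Over 15 alternatives the log2 ratio of endothelial over microglia class lay between 5.98 and 11.33 for Piezo2, 5.80 and 10.93 for Kcnq1 and -9.37 and -5.00 for Trpv2, past 4-fold in the same direction in all 15. Clic4 lay between 1.93 and 4.46, past 4-fold in 14. Piezo1 lay between -4.64 and 4.41, at 4-fold or more on the endothelial side in 12, and turned to -4.64 within plate A and -0.013 within plate B. Trpv4 lay between -5.41 and 6.47, past 4-fold in 1 on each side, plate A and the microglia-like cluster alone. A further alternative, leaving out cells with markers of the other class, removed 0 cells and is not counted. Within plate A, endothelial cells had 2 of the 6 genes past 4-fold and the microglia class 3, in place of 4 and 1. Of the other channel list genes, 24 were higher in the microglia class, and 37 within plate A, 43 within plate B and 11 with a pseudocount of 5 CPM; 21 were higher in endothelial cells, and 34 at 2-fold. Of the whole table, 1761 genes were higher in endothelial cells, and 1098 with a pseudocount of 5 CPM, 2810 against the microglia-like cluster alone and 3312 at 2-fold. In the microglia class 2989 were higher, and 6584 within plate A, 6609 within plate B, 1428 with a pseudocount of 5 CPM and 5572 at 2-fold. The cause of these differences was not tested. The median of all measured genes was -0.36, and -0.28 with TMM and -0.23 with DESeq2 size factors, so log2 ratios near 0, such as that of Trpv4, move by that shift. Leaving out the endothelial cells of each plate in turn was added after seeing the data. Requiring 10 reads moved 12 of 12 shares of cells, and thinning moved 2. No paired analysis was possible because each class is 1 sample. With 7 and 10 endothelial cells on plates A and B, within-plate values rest on few cells.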
